A study of Ursus arctos with 5 samples.

Results

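The respiratory chain and ATP synthase of grizzly bear (Ursus arctos) gastrocnemius (GA), a muscle of the lower hind leg, were followed through hibernation by their nuclear-encoded transcripts. A transcript was included when the human gene name assigned to it began with NDUF, UQCR, COX4 to COX8 or ATP5, or was one of the SDHA to SDHD genes or CYC1. This choice used names and no measured value. It found 74 transcripts of 38 genes, out of 9093 annotated transcripts of 4873 genes and 26614 transcripts in all. Complex I had 17 genes, complex II 3, complex III 4, complex IV 6 and complex V 8. Each gene is given by its transcript with the most reads, and 25 of the 38 genes had more than 1 transcript.

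The respiratory chain passes electrons from NADH (complex I) and succinate (complex II) through complex III to oxygen at complex IV. Complexes I, III and IV pump protons across the mitochondrial inner membrane, and ATP synthase (complex V) lets them back in to make ATP. Skeletal muscle holds many mitochondria, with more in slow than in fast fibers, and most subunits of these complexes are made from nuclear genes while a few are encoded in the mitochondrial genome.

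Muscle biopsies came from 2 captive bears, a subadult and an adult, each sampled in October, when active and fed, and in February, when hibernating without food. No genetic change separated the groups and no drug was under study. The anesthetic for the biopsies, tiletamine and zolazepam, was given at a lower dose when hibernating than when active. The sample labels give every animal as an adult of 10 years. Full-length cDNA of poly(A) RNA was sequenced as 4 single-end libraries, 1 for every bear and state, and 2 libraries stood for each state. The labels put both bears in a single sample per state. The bears are separated here by the columns of the deposited table, and which bear is the subadult follows the study's supplementary transcript list. State, season, feeding, anesthetic dose and biopsy date cannot be told apart. Values are RPKM, the reads of a transcript per kilobase of its length and per mega of reads aligned in that library. Changes are hibernating minus active on the log2(RPKM + 0.5) scale, which understates the change of transcripts near 1 RPKM, the lowest level listed. Whether this cDNA had been normalized by nuclease, which removes abundant sequences, is not given in the sources used here for the single-end libraries. Levels and changes of abundant transcripts are therefore those of the libraries.

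The libraries held 44.6 to 54.1 M (mega) aligned reads, and each of the 38 genes had at least 51 reads in each of them. Of 10 skeletal muscle markers, TTN, MYOT, RYR1 and CA3 were found, and ACTA1, CKM, MB and DES were not analysed here. TTN was at 700 and 794 RPKM in the hibernating and active subadult and at 155 and 598 RPKM in the adult. CA3 was at 566 and 769 RPKM in the subadult and at 110.5 and 475 RPKM in the adult. The hibernating adult was thus the lowest library in TTN and CA3. In MYOT (155 and 190 RPKM in the adult) and RYR1 (605 and 607 RPKM) it was not. Over 5 of 9 slow fiber markers, the summed level was 6501 RPKM in the hibernating and 5702 RPKM in the active subadult, against 2735 and 3110 RPKM in the adult. Of these markers, 3 (MYH7B, ATP2A2 and TPM3) were higher in hibernation in both bears. MYH7 was lower in both, at 1295 and 1839 RPKM in the hibernating and active adult. MYL3 was higher in the subadult and lower in the adult. Over 5 of 12 fast fiber markers, the summed level was 7441 and 10060 RPKM in the subadult and 14060 and 14600 RPKM in the adult. The active subadult library also stood apart in COL1A1, a fibrillar collagen, at 193 RPKM against 6.79 to 10.9 RPKM in the other libraries. In bulk muscle, fewer cells of a type and less RNA per cell cannot be told apart.

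Most of these genes were abundant. Their median level was 111 RPKM, against 4.90 RPKM over all annotated genes, and 20 of the 38 reached 100 RPKM, as did 3.24% of all genes. The catalytic beta subunit of ATP synthase, ATP5B, was highest in every library, at 828 and 934 RPKM in the hibernating and active subadult and 956 and 788 RPKM in the adult. The c-ring gene ATP5G2 came next in the mean at 504 RPKM, and the next genes in the order, ATP5G1 (359.6 RPKM), COX6A2 (331 RPKM) and NDUFS3 (324 RPKM), overlapped one another between libraries. Only 5 genes lay under 10 RPKM. They were SDHA, NDUFS7, COX8A, ATP5S and NDUFAF4.

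**Figure D1:**
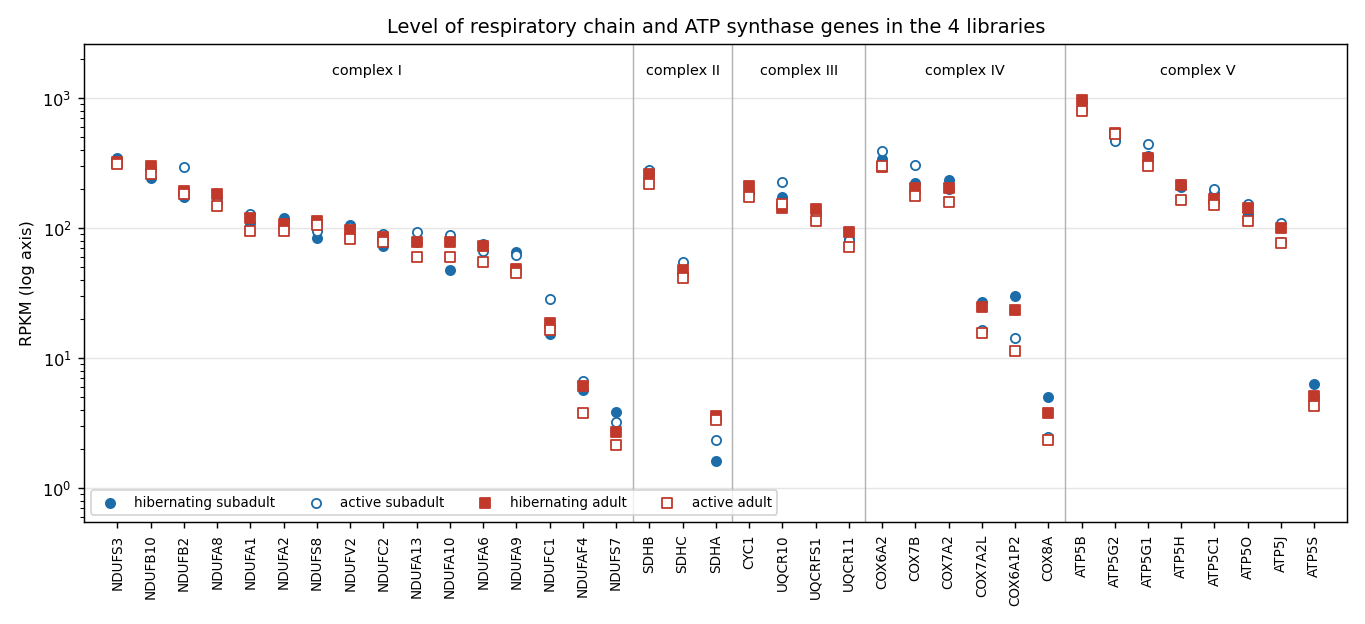
RPKM of the genes reported by name on a log axis, by complex and in falling order of mean level, with 1 point for each of the 4 libraries (filled for hibernating, open for active, circles for the subadult, squares for the adult). Levels run from SDHA at 1.62 RPKM to ATP5B at 956 RPKM, and the 4 points of a gene mostly lie close together except for genes such as COX6A1P2, NDUFA10 and NDUFB2.

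As a module, the genes differed between states with opposite signs in the 2 bears. In the subadult 16 of the 38 were higher in hibernation, where 60.5% of all annotated genes were higher, with a median log2 change of -0.14 (all genes 0.13). In the adult 36 of 38 were higher, where 72.1% of all genes were, with a median of 0.24 (all genes 0.17). The split within genes was the most frequent pattern. A lower level in the subadult with a higher one in the adult was seen in 20 of 38 genes, compared with 23.4% of all genes, and the reverse in 0 of 38, compared with 11.8%. Higher in both bears were 16 genes (42.1%, all genes 48.7%). The 2 genes UQCR10 and COX6A2 were lower in both (5.26%, all genes 16.1%).

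The signed change, not its size, was lower in the subadult than in the adult in 32 of the 38 genes, and in 54.5% of all genes. The median difference between the bears was -0.32 on the log2 scale (all genes -0.05). The pattern was also counted among abundant genes. Of the 31 members at 20 RPKM or more, 17 had that pattern, against 21.1% of all 667 genes above that floor. The floor does not match abundance, since 20 of the 31 members but 158 of the 667 genes reached 100 RPKM. With 1 library per bear and state, the difference between the bears was not tested.

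In RPKM as deposited, the members lay further apart between the active libraries than between the hibernating ones. The active subadult held the highest of the 4 values in 17 of 38 genes (20.3% of all genes), and the active adult the lowest in 27 of 38 (35.6% of all genes). Relative to a gene's mean over the 4 libraries, the median member stood at 0.11 in the active subadult and -0.22 in the active adult on the log2 scale. The hibernating libraries were closer together, at 0.01 in the subadult and 0.08 in the adult. For all genes the same medians were -0.08, -0.14, 0.08 and 0.08. The active adult was therefore low for all genes as well, whereas the active subadult was high for the members only. These medians were not computed under other scalings.

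**Figure D2:**
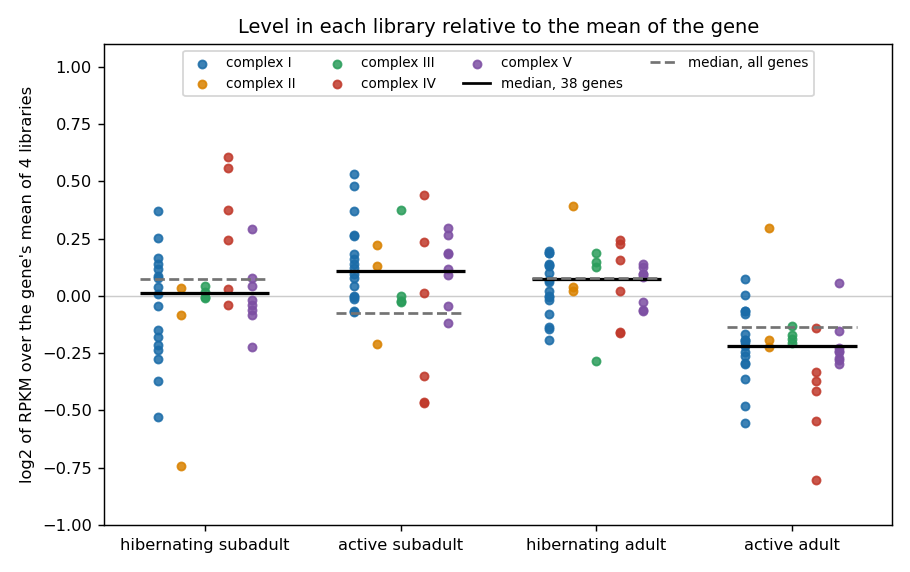
Level of each gene in each library relative to its own mean over the 4 libraries (log2), colored by complex, with the median of the 38 genes as a black line and of all annotated genes as a dashed line. The 38 genes lie highest in the active subadult (median 0.11) and lowest in the active adult (median -0.22), while the 2 hibernating libraries have medians of 0.01 and 0.08.

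Summed over the 38 genes, RPKM of the subadult was 5994 hibernating and 6654 active, and that of the adult was 6284 hibernating and 5455 active. The 2 hibernating values therefore lay between the 2 active ones. From activity to hibernation the sum changed by -9.9% (subadult) and 15.2% (adult). The state means, 6139 ± 204.5 RPKM in hibernation and 6054 ± 848 RPKM in activity (SD, n = 2), did not differ beyond their spread (exact permutation test, two-sided, p = 1.0, smallest possible p 0.33). Each of complexes I to V had the same order of libraries within each bear, with changes of -11.8 to -7.0% in the subadult and 13.3 to 18.9% in the adult (exact permutation test, p = 1.0 for each complex). The adult part depended on the scaling. With median-ratio scaling the sum over all genes of the set changed by -17.8% and 0.1%, and the adult sums of complexes I, III and IV turned to -0.9%, -0.3% and -1.5%. With upper-quartile scaling it changed by -18.7% and 3.1%. Together the 38 transcripts took 0.539 to 0.646% of the aligned reads of a library.

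The summed level of the fast fiber markers was also lower in the hibernating than in the active subadult, although MYH2, a fast myosin heavy chain, was at 3841 and 2755 RPKM in the hibernating and active subadult and at 3863 and 3493 RPKM in the adult. Matrix markers (6 of 9 found) summed to 301 and 391 RPKM in the subadult and to 258 and 184 RPKM in the adult. The subadult difference rests on COL1A1, and without it the sums were 289.7 and 198 RPKM in the subadult and 248.5 and 177 RPKM in the adult. COL3A1 was at 254 and 116 RPKM in the subadult and at 209.8 and 136 RPKM in the adult. Endothelial markers (2 of 7) summed to 16.3 and 22.3 RPKM in the subadult and to 16.7 and 14 RPKM in the adult. Fat cell markers (3 of 10) summed to 93.5 and 114.7 RPKM in the subadult and to 132 and 93.6 RPKM in the adult, and the only blood or immune marker found of 8, CD68, stood at 6.41 and 3.94 RPKM in the subadult and at 7.12 and 3.28 RPKM in the adult. None of these markers is at 0, since the table lists only transcripts of at least 1 RPKM. Their part in the split between the bears was not tested.

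No respiratory chain transcript passed the test between the states. In limma with Benjamini-Hochberg adjustment over 9093 transcripts, 0 of 74 had an adjusted p under 0.05, as did 0% of all annotated transcripts, and adjusted p-values of the 38 genes ran from 0.541 to 0.999. At an unadjusted p under 0.05 there were 6 of 74 transcripts (9.08% of all transcripts). These were 3 of COX6A1P2, 2 of COX7A2L and 1 of COX8A, all grouped by name with complex IV and all higher in hibernation. A score built after the study's own differential test counts how many differences between the bears within a state are smaller than the difference between states, in ratio and in amount. It reached 0.8 in 3 of 74 transcripts (3.61% of all transcripts), again those of COX6A1P2. Both shares are near the background.

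**Figure D3:**
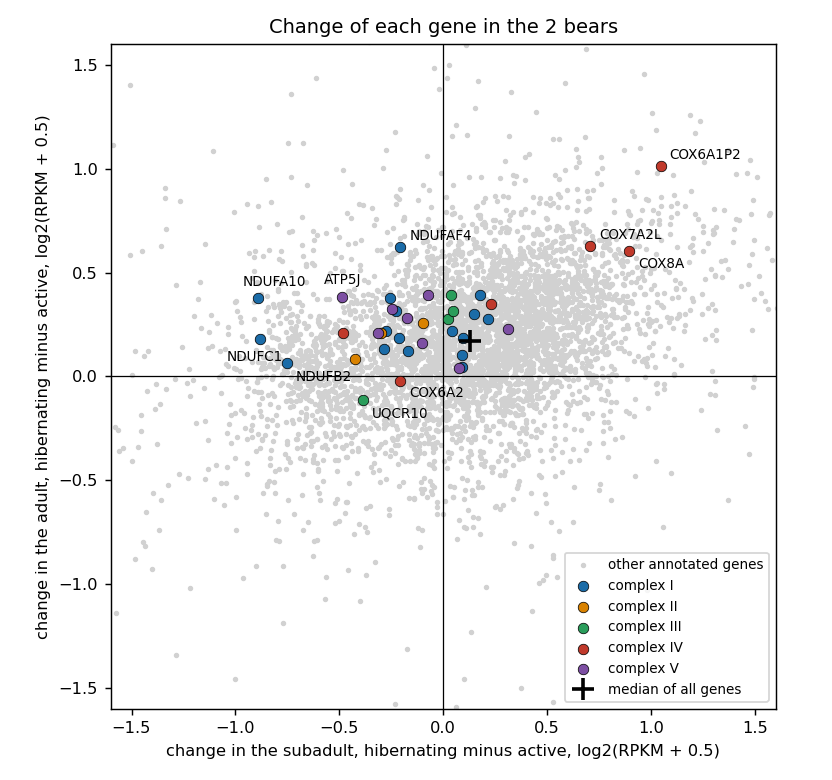
Log2 change (hibernating minus active) of each gene in the subadult (x axis) and the adult (y axis), with the 38 genes colored by complex over the other annotated genes in grey, of which 106 lie outside the axes. The 20 genes in the upper left quadrant were lower in the subadult but higher in the adult, and COX6A1P2, COX7A2L and COX8A sit apart at the upper right.

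The 3 genes that stood apart were grouped by name with complex IV, cytochrome c oxidase, the step that hands electrons to oxygen. Of them, only COX8A is counted here as an established subunit. COX6A1P2 was at 29.9 RPKM in the hibernating and 14.2 RPKM in the active subadult, and at 23.2 and 11.3 RPKM in the adult. Both hibernating libraries were above both active ones, with changes of 1.05 and 1.01 (mean 1.03, limma SE 0.24, unadjusted p = 0.00574, adjusted p = 0.541). The name is that of a human pseudogene of COX6A1, the widely expressed form of subunit 6A. The transcripts were named by their closest human protein, so the name does not say which bear gene they come from. All 3 COX6A1P2 transcripts were higher in hibernation, with mean changes of 0.90 to 1.13, but they share sequence and are not independent.

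COX7A2L, a relative of subunit 7A known for joining complexes III and IV into supercomplexes, was at 27.1 and 16.4 RPKM in the hibernating and active subadult and at 24.5 and 15.7 RPKM in the adult. The states did not overlap, with changes of 0.71 and 0.63 (adjusted p = 0.541, limma). COX8A, the widely expressed form of the small subunit 8, was at 5.01 and 2.47 RPKM in the subadult and at 3.79 and 2.33 RPKM in the adult. The states again did not overlap, at changes of 0.89 and 0.60 (adjusted p = 0.541, limma), on 137 to 332 reads per library. These were the 3 members with a difference of 1.5-fold or more in a shared direction, and 5.19% of all genes were higher by that much in the 2 bears.

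Of the 3 more abundant complex IV genes, COX7A2 was also higher in both bears, and COX6A2 and COX7B were not. COX6A2, the heart and skeletal muscle form of subunit 6A, was at 338 and 390.1 RPKM in the hibernating and active subadult and at 296 and 300.5 RPKM in the adult (changes -0.21 and -0.02). It was one of the 2 genes lower in both bears, although its states overlapped. COX7A2, the widely expressed form of subunit 7A, was at 235 and 200.1 RPKM in the subadult and at 201 and 158 RPKM in the adult (changes 0.23 and 0.35). Its states did not overlap. COX7B, another small subunit, was at 219.9 and 307 RPKM in the subadult but at 203 and 175 RPKM in the adult, with changes of -0.48 and 0.21. Over its 6 genes, complex IV had a median change of 0.47 (subadult) and 0.48 (adult). It depended on COX6A1P2, whose bear gene is not known, and COX7A2L, which is not an established subunit of the enzyme. Together COX6A1P2 and COX7A2L had medians of 0.88 and 0.82. The 4 established subunits, COX8A included, had medians of 0.01 and 0.28, which became -0.12 and 0.08 with scaling of the libraries by the median ratio.

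In complex I all 17 genes were higher in the hibernating adult as deposited, and 10 of the 17 were lower in the hibernating subadult, with medians of 0.22 and -0.21. With median-ratio and upper-quartile scaling, 9 and 12 of the 17 were higher in the adult. Among its subunits, 3 accessory proteins of the membrane arm had the largest gaps between the bears. NDUFA10 was at 47.2 RPKM in the hibernating and 88.0 RPKM in the active subadult, and at 77.4 and 59.5 RPKM in the adult, with changes of -0.89 and 0.38. The hibernating subadult library was the lowest of the 4 and the active subadult the highest. NDUFC1 showed the same order of subadult values, at 15.3 and 28.6 RPKM, with 18.7 and 16.4 RPKM in the adult (changes -0.88 and 0.18). NDUFB2 was at 174.5 and 294 RPKM in the subadult and at 192 and 184 RPKM in the adult (changes -0.75 and 0.06). In NDUFA10, NDUFC1 and NDUFB2 the adult values lay between those of the subadult.

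The core subunits of complex I, several of which carry flavin or iron-sulfur clusters, had smaller gaps between the bears than NDUFA10, NDUFC1 and NDUFB2. Values of 4 core subunits are given. NDUFS3, the most abundant complex I gene, was at 343.5 and 323 RPKM in the subadult and at 319.6 and 309.6 RPKM in the adult (changes 0.09 and 0.05). NDUFS8, which carries iron-sulfur clusters, was at 84.4 and 95.0 RPKM in the subadult and at 114 and 105 RPKM in the adult (changes -0.17 and 0.12). The states overlapped in each of them. NDUFV2, part of the NADH-oxidizing module, was at 105 and 102 RPKM in the subadult and at 96.5 and 83.0 RPKM in the adult (changes 0.04 and 0.22). NDUFS7, another iron-sulfur subunit, was the lowest of the complex, on 51 to 103 reads. It was at 3.84 and 3.23 RPKM in the subadult and 2.69 and 2.13 RPKM in the adult (changes 0.22 and 0.28). NDUFV2 and NDUFS7 overlapped between states as well.

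Among the other accessory genes, NDUFA6 had the largest mean increase in complex I (0.28), at 75.5 and 66.8 RPKM in the hibernating and active subadult and 72.3 and 54.9 RPKM in the adult, with no overlap of the states. NDUFA8 was at 174.5 and 157 RPKM in the subadult and at 181 and 147 RPKM in the adult, also without overlap. NDUFA2 and NDUFA9 were higher in both bears by 0.09 to 0.19, and their states overlapped. NDUFA1, NDUFA13, NDUFB10 and NDUFC2 followed the split, with changes of -0.29 to -0.23 in the subadult and 0.13 to 0.38 in the adult. NDUFAF4, an assembly factor and no subunit of the finished complex, was at 5.72 and 6.68 RPKM in the subadult and at 6.11 and 3.80 RPKM in the adult (changes -0.21 and 0.62). Its low value was that of the active adult.

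Complex II, succinate dehydrogenase, is also an enzyme of the tricarboxylic acid (TCA) cycle. All 3 of its genes were lower in the hibernating subadult but higher in the hibernating adult (medians -0.30 and 0.21). With median-ratio or upper-quartile scaling, 2 of the 3 were higher in the adult. SDHB, the iron-sulfur subunit, was at 261 and 278.5 RPKM in the hibernating and active subadult and at 261 and 218.5 RPKM in the adult. SDHC, a heme-binding membrane anchor, was at 44.6 and 55.1 RPKM in the subadult and at 47.9 and 41.3 RPKM in the adult. In both genes the active subadult was the highest library and the active adult the lowest. SDHA, the flavin-bearing catalytic subunit, was listed at only 1.62 and 2.35 RPKM in the subadult and 3.56 and 3.33 RPKM in the adult, although it pairs with SDHB in the complex. It is a single transcript of 1021 bases, with 83 to 197 reads per library.

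Complex III, which passes electrons from ubiquinol to cytochrome c, had changes near 0 in the subadult but was higher in the hibernating adult (medians 0.03 and 0.30). CYC1, cytochrome c1, was at 189.7 and 187 RPKM in the hibernating and active subadult and at 210.5 and 173 RPKM in the adult (changes 0.02 and 0.28). UQCRFS1, the Rieske iron-sulfur protein, was at 133 and 129 RPKM in the subadult and at 141 and 113 RPKM in the adult (changes 0.05 and 0.31). UQCR11, a small subunit, was at 82.5 and 80.4 RPKM in the subadult and at 92.9 and 70.8 RPKM in the adult (changes 0.04 and 0.39). None of CYC1, UQCRFS1 and UQCR11 overlapped between states, yet in the subadult the gap was under 5 RPKM in each. UQCR10, another small subunit, went the other way in both bears, at 172 and 225 RPKM in the subadult and 142 and 154 RPKM in the adult (changes -0.38 and -0.11), with overlap of the states.

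In ATP synthase 6 of the 8 genes were lower in the hibernating subadult, and all 8 were higher in the hibernating adult (medians -0.14 and 0.25). With median-ratio or upper-quartile scaling, 6 of the 8 were higher in the adult. ATP5B changed by -0.17 and 0.28 in the subadult and adult. ATP5C1, the rotating gamma shaft, was at 185 and 199 RPKM in the hibernating and active subadult and at 167 and 149.7 RPKM in the adult (changes -0.10 and 0.16). ATP5O, which ties the catalytic head to the stalk, was at 129 and 153 RPKM in the subadult and at 142.5 and 114 RPKM in the adult (changes -0.25 and 0.32). ATP5B, ATP5C1 and ATP5O thus followed the split. ATP5J, coupling factor 6 of the stalk, had the largest gap between the bears in this complex, at 77.6 and 109 RPKM in the subadult and 99.7 and 76.4 RPKM in the adult (changes -0.49 and 0.38). ATP5H, subunit d of the stalk, was at 207 and 218 RPKM in the subadult and at 215 and 164 RPKM in the adult (changes -0.07 and 0.39).

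ATP5G1 and ATP5G2 encode the same mature c subunit of the proton-driven ring behind different targeting sequences, so reads between them are uncertain. ATP5G1 was at 355 and 441 RPKM in the hibernating and active subadult and at 344 and 298 RPKM in the adult (changes -0.31 and 0.21). ATP5G2 was at 489 and 464 RPKM in the subadult and at 538 and 524 RPKM in the adult (changes 0.08 and 0.04). Its states overlapped. ATP5S, a coupling factor that is no fixed subunit, was at 6.34 and 5.02 RPKM in the subadult and at 5.07 and 4.26 RPKM in the adult (changes 0.31 and 0.23), without overlap.

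Across all complexes the states did not overlap in 10 genes, all higher in hibernation (26.3%, all genes 35.8%), and in 0 genes lower in hibernation (all genes 8.11%). The 10 were COX6A1P2, COX7A2L, COX8A, COX7A2, NDUFA6, NDUFA8, CYC1, UQCRFS1, UQCR11 and ATP5S. Their share was below that of all genes. The log2 changes of the 2 bears had a Pearson r of 0.56 across the 38 genes, against 0.32 across all annotated genes. Across the 35 left without COX6A1P2, COX7A2L and COX8A, r was 0.11. The genes left out were those with the largest changes shared by both bears, so a lower r follows from that choice. The r of all annotated genes was not trimmed in this way, so 0.11 cannot be set against 0.32. The points behind each r share their libraries, and genes are not independent replicates.

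Transcripts of the same gene mostly agreed in sign. Of the 25 genes with more than 1 transcript, 21 had every transcript on the same side of 0 in the mean of the bears. The exceptions were ATP5B, ATP5G2, NDUFA13 and NDUFS3. Transcripts of a gene can share sequence and are not independent, so agreement in sign is weak support. The same count was not made over all genes. In NDUFS3 the second transcript was listed at 1.59 to 2.95 RPKM and had changes of -0.56 and 0.07. In ATP5B the fourth transcript was at 2.60 to 5.66 RPKM with changes of -0.65 and 0.16. The second ATP5G2 transcript, at 60.5 to 97.6 RPKM, followed the split with changes of -0.32 and 0.29, unlike the main one. In NDUFA13 all 3 transcripts followed the split, with means over the bears of 0.06, 0.05 and -0.0023.

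The direction of the median of the 38 genes in each bear was kept under other scalings of the libraries, but the adult median came near 0. Most counts were not kept. Scaling by the median ratio shifted every log2 change by -0.13 (subadult) or -0.20 (adult), and scaling by the upper quartile shifted them by -0.15 or -0.16. The median of the 38 genes became -0.27 and 0.05 with the first and -0.28 and 0.09 with the second. The number with the split was 17 and 20 (875 and 1016 of all 4873 genes). The number higher in both bears fell to 8 and 8 (all genes 1506 and 1604). The number lower in both became 13 and 10 (all genes 1508 and 1422). Higher in the adult were 25 and 28 of the 38 (all genes 2381 and 2620). Genes without overlap of the states, higher in hibernation, were 4 under either scaling, namely COX6A1P2, COX7A2L, COX8A and NDUFA8 (20.7% and 22.5% of all genes). Those lower in hibernation without overlap became 6 and 3 (17.0% and 15.8% of all genes), and the 3 found with both scalings were NDUFB2, NDUFC2 and NDUFS3. Complex III turned to -0.10 and -0.12 in the subadult, whereas the median of the 6 complex IV genes stayed at 0.29 or more in both bears.

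**Figure D4:**
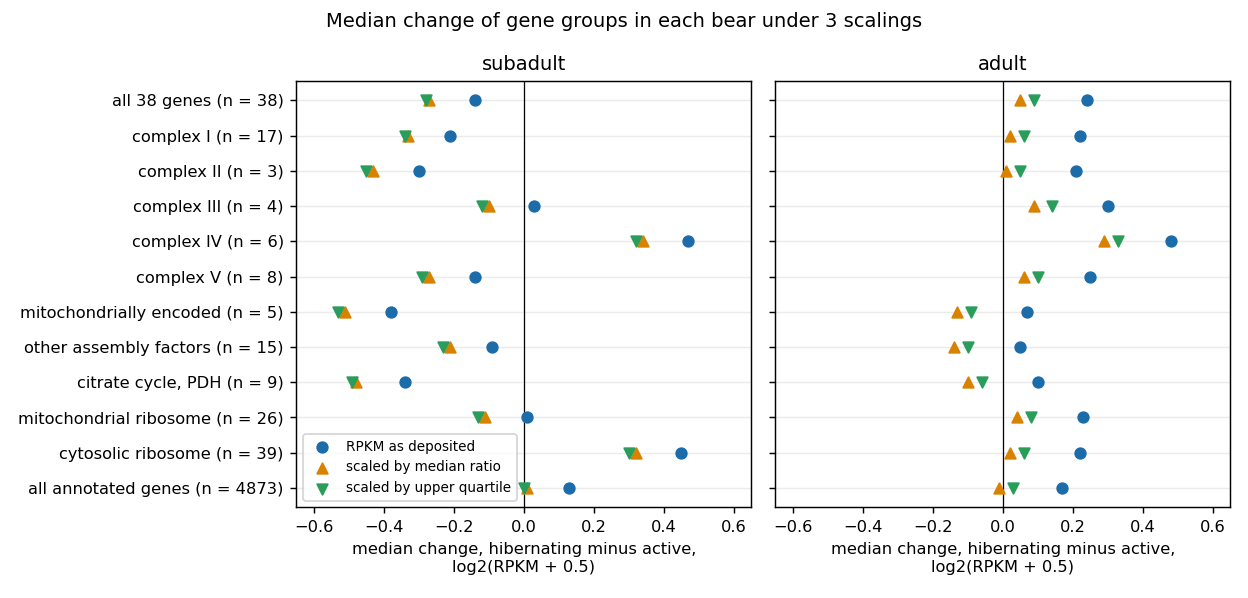
Median log2 change (hibernating minus active) of each complex and of other gene groups in the subadult (left) and the adult (right), as deposited and under 2 scalings of the libraries, with n genes per group. Complexes I, II and V lie below 0 in the subadult and above 0 in the adult under all 3. With median-ratio scaling, however, their adult medians are only 0.02, 0.01 and 0.06. Complex IV lies above 0 in both bears, and the cytosolic ribosome lies above 0 in both.

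Other mitochondrial genes are set beside them for reference, as deposited. The 5 mitochondrially encoded subunits found of 13 had medians of -0.38 in the subadult and 0.07 in the adult. They were far more abundant than the nuclear-encoded genes, with MT-ND4, a proton-pumping subunit of complex I, at 8756 and 11390 RPKM in the hibernating and active subadult and 8790 and 9418 RPKM in the adult. MT-ND2, also of complex I, was lower in hibernation in both bears without overlap, at 1959 and 2921 RPKM in the subadult and 2046 and 2905 RPKM in the adult (adjusted p = 0.665, limma). The 9 genes found of 18 of the TCA cycle and pyruvate dehydrogenase had medians of -0.34 and 0.10. Among them CS, citrate synthase, differed from that direction, at 298 and 217 RPKM in the subadult and at 269.6 and 194 RPKM in the adult.

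Assembly factors outside the name rule (15 of 38 found) had medians of -0.09 and 0.05, and genes of electron carriers and coenzyme Q synthesis (6 of 15) had medians of -0.42 and 0.01. Genes of ATP export, coupling and the inner membrane (8 of 16) had medians of -0.22 and 0.45. Regulators of respiratory genes (8 of 17) had medians of 0.23 and 0.15, and mitochondrial ribosomal proteins (26 genes) had 0.01 and 0.23. In the 6 lists other than the ribosomal ones, 0 genes passed an adjusted p of 0.05 in limma. At an unadjusted p under 0.05 there were 4 of 51 genes in them (7.84%, against 9.08% of all transcripts). COX15 (heme A synthesis for complex IV), SLC25A3 (phosphate import) and PPARGC1B (a coactivator of mitochondrial genes) were higher in hibernation, and COQ3 (coenzyme Q synthesis) was lower. Cytosolic ribosomal proteins (39 genes) had medians of 0.45 in the subadult and 0.22 in the adult.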

How the data were processed

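RNA of gastrocnemius biopsies was sequenced by the authors on an Illumina GAIIX (single-end). Transcripts had been assembled with Newbler 2.3 and SOAPdenovo and named by BLAST against human proteins of Ensembl 66, and reads were aligned with SOAP2. How reads that match several transcripts were assigned is not given in the sources used here. The deposited values are RPKM, with a length per transcript, and the deposited table lists only transcripts of at least 1 RPKM in all 4 libraries. A transcript below that in any library was not analysed here.

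From these, log2(RPKM + 0.5) of 2 hibernating libraries was set against that of 2 active ones in limma 3.58.1 (R 4.3.3) with a trended prior variance. P-values were adjusted by Benjamini-Hochberg over the 9093 transcripts with a gene name. The fit and the score were tested on simulated data. Since the values are RPKM, no count test was run. The score follows NOISeq, takes 53228 differences between bears within a state over all transcripts, and is a share, not a p-value. Tables used Python 3.11.15, pandas 2.3.3, numpy 2.4.6, scipy 1.17.1 and matplotlib 3.10.9. Library depth came from RPKM times length, which was a whole multiple of a common step for 93.8 to 94.7% of low values (tolerance 0.1 reads).

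Both libraries of a bear are from 1 animal, which pairs the samples. Across transcripts the deviations of the bears in both states correlated at a Pearson r of 0.356. P-values measure the spread between these libraries. The members and lists were chosen with earlier results of these data known. Named genes were to be core subunits, subunits with paralogs, the largest mean differences and highest and lowest levels of each complex, those past an unadjusted p of 0.05 or a score of 0.8, and genes whose transcripts disagree. All other members, among them NDUFA10, NDUFA8 and NDUFAF4, and the single genes named from other lists were added after their values were seen. Alternatives covered scaling, pseudocount, a minimum level, the choice of transcript, the prior variance, the replicate block and each bear left out. The values of 1 member are not reported here, although it is counted among the 38.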

Additional observations from a re-analysis of the deposited data

Results flagged for a closer look

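The results singled out here are those in which the subadult and the adult moved in opposite directions. The difference between the bears was not tested, since each bear has 1 library per state. Summed RPKM of all 38 genes changed by -9.9% (subadult) and 15.2% (adult). For complex I the sums changed by -11.8% and 14%, for complex II by -8.7% and 18.9%, and for complex III by -7.0% and 14.7%. For complex IV they changed by -8.2% and 13.3%, and for complex V by -9.7% and 16.6%. With median-ratio scaling the sum of the 38 genes changed by -17.8% and 0.1%, and the adult sums of complexes I, III and IV fell by 0.9%, 0.3% and 1.5%, so the opposite signs of the sums depend on the scaling. In complex III, 0 of 4 genes had opposite signs and 3 were higher in both bears. By gene, 20 of the 38 were lower in the hibernating subadult and higher in the hibernating adult. Groups of 2 libraries are too small for a test of single outlying libraries.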

How the results depend on the processing

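Of 225 values compared over 16 settings, 197 stayed within the spread between the bears, or within 1.5 times for a count, and 28 moved further. That spread is wide where the bears moved in opposite directions, so a value within it is not thereby stable. The adult sum stayed within it although it went from 15.2% to 0.1% with median-ratio scaling. Values with a bear left out lie within it almost by construction. Most of the 28 are medians of complex IV, for which the 2 bears nearly coincide, so that small shifts exceed their spread. Its median over both bears, 0.48 as reported, was 0.31 with median-ratio and 0.33 with upper-quartile scaling, 0.49 and 0.47 with a pseudocount of 0.1 and 1, and 0.29 at a mean RPKM of at least 5. In the subadult the same settings gave 0.34, 0.32, 0.48, 0.46 and 0.23, the longest transcript gave 0.48 and the mean of transcripts 0.47. In the adult they gave 0.29, 0.33, 0.49, 0.44 and 0.35. Complex III in the adult was 0.09 with median-ratio scaling. Under median-ratio and upper-quartile scaling, 8 and 8 genes were higher in both bears (1506 and 1604 of all 4873 genes). Lower in both were 13 and 10 (all genes 1508 and 1422). Without overlap, 4 and 4 were higher (all genes 20.7% and 22.5%) and 6 and 3 lower (all genes 17.0% and 15.8%). The mean change of 13 and 12 genes turned its sign. At a score of 0.9 the count was 0. The median of the 38 genes over both bears, 0.06, was -0.11 and -0.09 under these scalings. Leaving out a bear gave -0.14 without the adult and 0.24 without the subadult, and for complex IV 0.47 to 0.48. Limma gave 0 adjusted calls among the 74 transcripts in each fit run. With the bear as a replicate block, 7 instead of 6 passed an unadjusted p of 0.05 (13.5% of all transcripts in that fit), and the block changed no other call. Leaving out a bear leaves 1 library per state, so limma, the score and counts over both bears could not be run then, and the score uses no pseudocount. The genes under 10 RPKM rest on 51 to 904 reads per library.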
